A study of Mus musculus with 7 samples.

Results

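The S100 calcium-binding proteins described here are 8 genes of the 20142 symbols that the deposited expression table lists once: S100a1, S100a4, S100a6, S100a8, S100a9, S100a10, S100a11 and S100a13. They were found by gene symbol, and all 8 had a row. The set was selected on a measured value, the much higher level of S100a4 in CD34-positive cells, so for these genes the comparison of the CD34 states is given as a description and without a test. The study measured RNA by sequencing in EML cells, a mouse blood progenitor line grown from bone marrow that can make erythroid, myeloid and lymphoid cells. Cells that bound Annexin V were discarded and live cells were sorted by surface CD34 into 4 CD34-negative and 3 CD34-positive libraries, and the series title names lineage choice and self-renewal. Both groups carry the labels strain C57BL/6, tissue bone marrow and age postnatal day 14.7, although the source is the cell line, and no treatment is given. For the negative libraries the genotype label says CD43 while the title says CD34, and grouping went by the title. The descriptions number the libraries: replicates 1 and 2 of both groups carry the numbers 3 and 2, and the number 4 is shared by replicates 3 and 4 of the negative group with replicate 3 of the positive group. These numbers are used to set like libraries side by side.

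S100 proteins are small proteins of the EF-hand family that bind calcium, form dimers and then attach to partner proteins. S100a4 binds non-muscle myosin and is linked to cell motility, S100a6 binds calcyclin-binding protein, S100a10 forms a complex with annexin A2 at the membrane and S100a11 pairs with annexin A1. S100a8 and S100a9 together form calprotectin, an abundant cytosolic protein of mature neutrophils and of monocytes, S100a1 is best known from heart muscle, and S100a13 takes part in the export of a fibroblast growth factor.

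Levels are in FPKM, which scales the fragments of a gene by its transcript length and by library size, and how deeply each library was sequenced is unknown. From 8606 to 9117 genes were at or above 1 FPKM per library. The share of ribosomal protein genes in all FPKM was 27.7% to 37.1% in the 4 libraries numbered 2 and 3, but 2.25% to 4.15% in the 3 numbered 4, which hold 2 CD34-negative libraries and 1 CD34-positive one. Single symbols weigh on these sums. Mir703 alone had 149618 of 432027 FPKM in CD34-negative replicate 3 and 35989 of 272109 FPKM in replicate 4. In CD34-positive replicate 3 the highest symbol was Snora31, with 10284 of 260352 FPKM. Cd34 itself stood at 147, 256 and 153 FPKM in the CD34-positive libraries and at 91.8, 19.3, 2.67 and 6.02 FPKM in the CD34-negative ones. The groups did not overlap, so the libraries followed their labels in order and CD34-negative replicate 1 came nearest to the positive group. All 11 listed stem and progenitor genes were detected.

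Of the 8 S100 genes, 6 reached 1 FPKM in every library and entered the fits, and S100a8 and S100a9 did not. Averaged over the 7 libraries, FPKM were highest for S100a10 (307 ± 55.1, SD, n = 7), followed by S100a11 (214 ± 135), S100a4 (136 ± 163), S100a6 (63.9 ± 70.5), S100a13 (39.6 ± 21.9) and S100a1 (24.8 ± 7.87). In this order each gene differed from the next by less than the larger of their SDs. The genes differed in how steady they were. S100a10 and S100a1 varied 1.81-fold and 2.52-fold between the lowest and the highest library, S100a13 4.56-fold and S100a11 6.42-fold, and S100a6 and S100a4 68.1-fold and 76.1-fold. On the log2(FPKM + 1) scale the SD of S100a4 over the libraries, 2.11, was larger than that of 98.1% of the 9259 tested genes, and the SD of S100a10, 0.28, was larger than that of 11.9%.

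**Figure D1:**
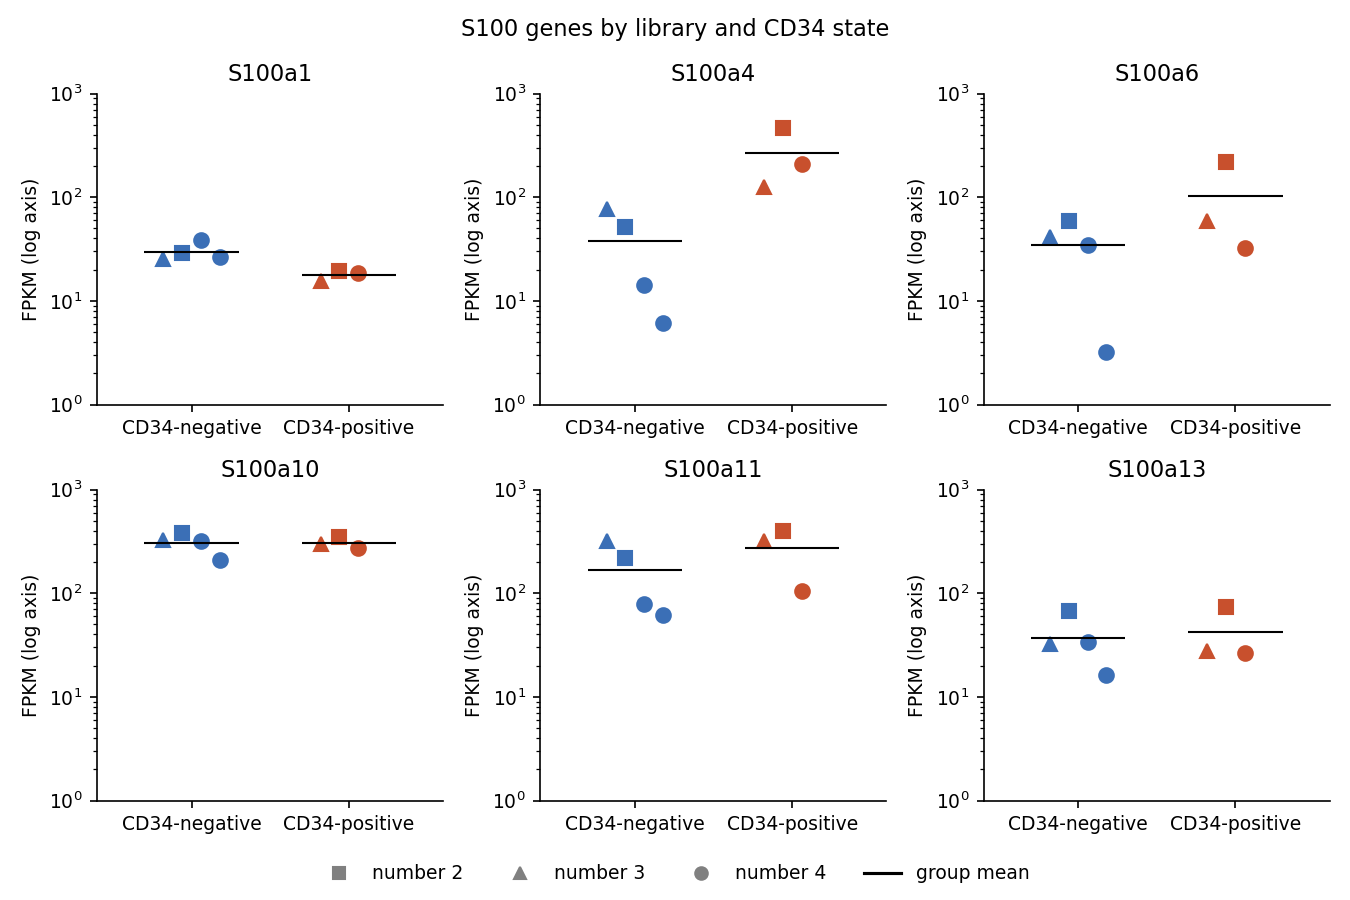
FPKM (log axis) of the 6 detected S100 genes in each library, by CD34 state, with symbols for the description number and a line for the group mean. S100a4 and S100a1 do not overlap between the groups, in opposite directions, and S100a10 lies at like levels in both.

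S100a4, also known as metastasin or fibroblast-specific protein, was the gene on which the set was chosen. It stood at 125, 469.8 and 209.95 FPKM in CD34-positive replicates 1, 2 and 3. In CD34-negative replicates 1, 2, 3 and 4 it stood at 77.6, 52.2, 14.2 and 6.17 FPKM. Every CD34-positive library was above every CD34-negative one, and the nearest approach was between the replicate 1 libraries, which also had the closest levels of Cd34. The means were 268.3 ± 179.7 FPKM (SD, n = 3) and 37.5 ± 33.4 FPKM (SD, n = 4), a difference of 3.16 in log2(FPKM + 1), and 5 of the 9259 tested genes had a larger one. Within libraries of equal number the FPKM ratio of positive to negative was 9.01 for number 2 and 1.61 for number 3. For number 4 the ratio was 14.8 to CD34-negative replicate 3 and 34.0 to CD34-negative replicate 4. S100a4 was therefore higher in the positive library of each number, but by very different amounts, and with only the libraries numbered 2 and 3 the log2 difference was 1.91 in place of 3.16. In bulk RNA fewer cells of a type and less RNA per cell cannot be told apart, so these values do not say whether all sorted cells or some of them carried more S100a4. S100a4 made up 14.8%, 30.7% and 31.6% of the summed FPKM of the 6 S100 genes in the positive libraries, against 1.91% to 9.49% in the negative ones, and it was the leading S100 gene in CD34-positive replicate 2.

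S100a6, or calcyclin, lies next but one to S100a4 on chromosome 3 and followed it in part. It stood at 59.2, 217.8 and 32.1 FPKM in CD34-positive replicates 1, 2 and 3, while the CD34-negative replicates 1 to 4 had 41.3, 59.1, 34.4 and 3.20 FPKM. The groups overlapped: CD34-positive replicate 2 was far above the rest and CD34-negative replicate 4 far below, and the other 5 libraries lay between 32.1 and 59.2 FPKM. The means were 103 ± 100.3 FPKM (SD, n = 3) and 34.5 ± 23.3 FPKM (SD, n = 4), a log2 difference of 1.61. Within equal numbers the ratio was 3.69 for number 2, 1.44 for number 3, and 0.93 and 10.02 for CD34-positive replicate 3 against CD34-negative replicates 3 and 4. The 2 extreme libraries carried much of the difference, which was 0.76 with CD34-negative replicate 4 left out and 0.85 with CD34-positive replicate 2 left out. S100a4 exceeded S100a6 by 2.11-fold, 2.16-fold and 6.55-fold in the positive libraries, whereas their ratio ran from 0.41 to 1.93 in the negative ones.

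The promoters of S100a4 and S100a6 are shown because these neighbours had the 2 largest differences of the family. Each line holds the 250 bases before the transcription start, 5′ to 3′ on the plus strand of GRCm38.p6, from RefSeq, which held a promoter for 7 of the 8 genes. S100a4 is read from chr3:90603520-90603769 and S100a6 from chr3:90612644-90612893. The deposited table has no coordinates. Capitals mark matches on either strand to the TATA box TATAAA, the RUNX core TGTGGT, the TCF/LEF core CTTTGA or the GATA core AGATAA, motifs chosen after the values were seen.
S100a4: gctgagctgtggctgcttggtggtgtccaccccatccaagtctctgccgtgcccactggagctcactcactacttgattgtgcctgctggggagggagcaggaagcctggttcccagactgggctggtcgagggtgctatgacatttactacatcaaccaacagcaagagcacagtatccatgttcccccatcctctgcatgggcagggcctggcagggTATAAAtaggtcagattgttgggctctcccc
S100a6: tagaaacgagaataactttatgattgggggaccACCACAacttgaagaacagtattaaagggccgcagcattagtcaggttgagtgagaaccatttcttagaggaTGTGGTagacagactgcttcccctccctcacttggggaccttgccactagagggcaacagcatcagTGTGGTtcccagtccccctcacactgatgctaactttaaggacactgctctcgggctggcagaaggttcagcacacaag
The S100a4 window held 1 TATA box, whose first base lies 31 bases before the start, and no match to the other motifs. The S100a6 window held no TATA box and 3 RUNX cores, which begin 217, 145 and 79 bases before the start, with the first of them on the minus strand. None of these motifs overlapped another. Of all 32851 promoters in that table, 12.4% held the TATA box in the same 250 bases, 14% the RUNX core, 13.8% the TCF/LEF core and 9.99% the GATA core. A match describes letters only and no factor was measured here.

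S100a1 went the other way. It stood at 15.4, 19.4 and 18.8 FPKM in the CD34-positive libraries while the CD34-negative replicates 1 to 4 had 25.6, 28.7, 39.0 and 26.5 FPKM. All 3 positive values lay below all 4 negative values, with little spread in either group. The means were 17.9 ± 2.12 FPKM (SD, n = 3) and 29.9 ± 6.15 FPKM (SD, n = 4), a log2 difference of -0.70, and 3.93% of tested genes had a lower one. Within numbers 2, 3 and 4 the log2 difference was -0.54, -0.69 and -0.75. For number 4 it was -1.01 against CD34-negative replicate 3 and -0.48 against CD34-negative replicate 4, so S100a1 was lower in each number by amounts that depended on the negative library. It starts head to head with S100a13, the 2 gene spans share 98 bases in RefSeq, and strand use in the counting is not given in the sources used here. Reads from the shared stretch cannot be told apart.

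S100a11 was high in both states and leaned towards the positive one. It stood at 322, 398 and 105 FPKM in CD34-positive replicates 1 to 3, while the CD34-negative replicates 1 to 4 had 316, 219, 79.3 and 62.0 FPKM. The groups overlapped, and the libraries split by their number more than by CD34: all 3 numbered 4 were at or under 105 FPKM and the other 4 at or above 219 FPKM. The means were 275 ± 152 FPKM (SD, n = 3) and 169 ± 120.4 FPKM (SD, n = 4), a log2 difference of 0.80. Within numbers 2, 3 and 4 it was 0.86, 0.03 and 0.58, so the replicate 1 libraries differed hardly at all. Leaving out CD34-positive replicate 3 gave a difference of 1.39, and leaving out CD34-positive replicate 2 gave 0.44. In the negative group, leaving out replicate 1 gave 1.21 and replicate 4 gave 0.43.

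S100a10, also called p11, was the most abundant member and the flattest. It stood at 296, 349 and 271 FPKM in CD34-positive replicates 1 to 3, while the CD34-negative replicates 1 to 4 had 325, 379, 318 and 209.7 FPKM. The means, 306 ± 40.0 FPKM (SD, n = 3) and 308 ± 70.7 FPKM (SD, n = 4), lay within the spread of either group, with a log2 difference of 0.01 whose sign was kept in 9 of 17 other settings. S100a13 stood at 27.7, 73.8 and 26.5 FPKM in the positive and at 32.3, 67.2, 33.8 and 16.2 FPKM in the negative libraries. Its groups overlapped, the number 2 libraries of both states were the highest, and the log2 difference of 0.19 had the same sign in 13 of 17 other settings.

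S100a8 and S100a9 were listed at 0 FPKM in all 7 libraries. None of 8 genes that every cell uses, among them Actb and Tbp, was at 0 in any library. A value of 0 throughout was common, however: 6921 of the 20142 symbols listed once were at 0 in every library. Other genes of late neutrophil maturation were also at or near 0, while most early granule genes listed were present. Camp and Lcn2 were at 0 in every library, and Ltf and Ngp, 2 further proteins of late granules, did not exceed 0.12 and 0.16 FPKM. Mpo, the enzyme of the early granules, stood at 1488, 1693 and 883 FPKM in the positive and at 1141, 175, 37.8 and 85.2 FPKM in the negative libraries. Elane, another early granule gene, stood at 0.30 FPKM in CD34-negative replicate 1 and at 0 elsewhere. Of 14 neutrophil markers measured, 4 passed the minimum (Prtn3, Ctsg, Mpo and Cebpe). Their list summed to 1238 to 2358 FPKM in positive and 124 to 1311 FPKM in negative libraries, ranges that overlapped. Of 11 monocyte and macrophage markers 3 passed, Cd14 and C1qa were at 0, and the sums were 35.8 to 46.6 and 11.1 to 71.3 FPKM. The part of either list in the S100a4 difference was not tested. S100a4 is also used as a fibroblast marker, and of 11 fibroblast and stroma markers 8, among them Col1a2, Col3a1, Dcn, Pdgfra and Acta2, were at 0 in every library. Pdgfrb was the 1 of them that passed, and the list summed to 38.9 to 62.9 FPKM in positive and 16.6 to 53.3 FPKM in negative libraries. Of 11 T and NK cell markers, whose mature cells also carry S100a4, Cd3e, Cd2, Cd8a and Ncr1 were at 0, Nkg7 and Gzma passed, and the sums were 291 to 776 and 77.8 to 278 FPKM. Mast cell markers, 9 of 10 detected, summed to 2790 to 3592 FPKM in positive and 4362 to 19041 FPKM in negative libraries. Erythroid markers, 7 of 10 detected, summed to 58.0 to 649.6 and 148 to 2091 FPKM, and B cell markers, 0 of 8 detected, to 1.13 to 2.28 and 0.40 to 1.83 FPKM. The part of these lists was not tested either.

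**Figure D2:**
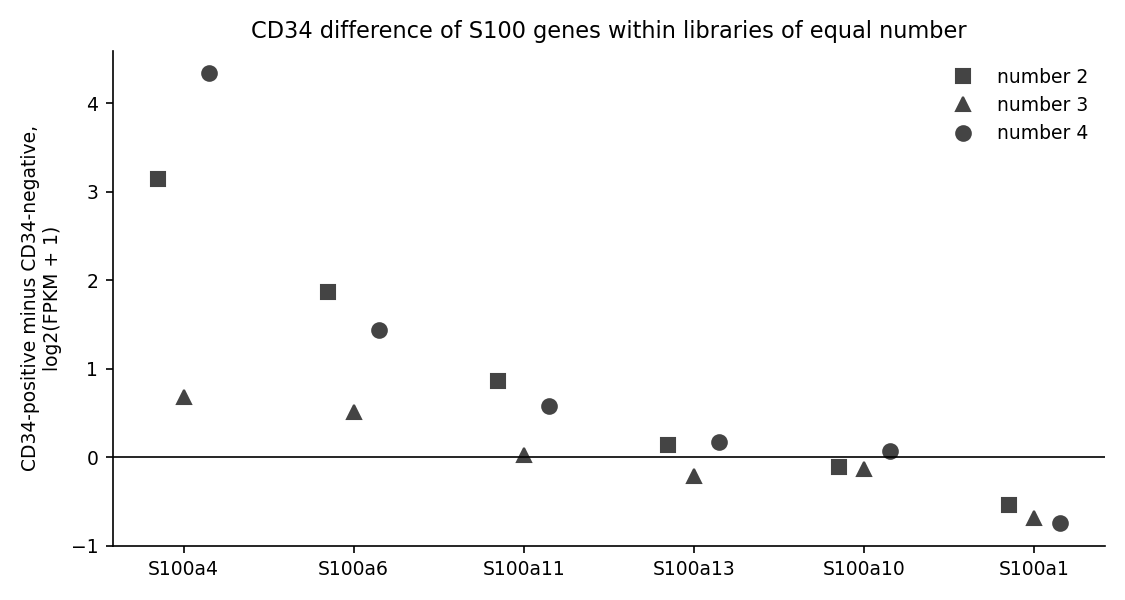
Difference between CD34-positive and CD34-negative libraries of equal description number in log2(FPKM + 1), for each detected S100 gene, with the 2 negative libraries numbered 4 averaged. S100a4, S100a6 and S100a11 lie above 0 for all 3 numbers, S100a1 lies below 0 for all 3, and S100a4 ranges from 0.68 to 4.34.

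Side by side, S100a4 was the 1 of 6 detected members that was higher without overlap between the groups, and S100a1 the 1 that was lower, where 2.67% and 3.01% of all tested genes did so. S100a4, S100a6 and S100a11 were higher in all 3 numbers, as were 29% of tested genes, and S100a1 was lower in all 3, as were 25%. The set was chosen on this contrast, and nothing is read from these counts. Over all genes no gene was higher (0%) or lower (0%) at an adjusted p of 0.05 in limma. At an unadjusted p under 0.05 limma had 313 genes higher (3.38%) and 210 lower (2.27%), or 1188 (12.8%) and 846 (9.14%) with the description number as a block. With CD34-negative replicate 1 left out, 7 genes passed as higher and 3 as lower. Nothing in the labels says that the replicates are independent cultures. The p-values therefore reflect library-to-library spread alone, and that spread may be technical.

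The S100 genes of the mouse lie mostly in a row on chromosome 3, and expression within that row was patchy. RefSeq places 12 protein-coding genes from S100a1 to S100a9, all of them S100 genes and all in the table. S100a1, S100a13, S100a4 and S100a6 were at or above 1 FPKM in every library, 7 genes stayed under 1 FPKM in every library, and S100a5 passed 1 FPKM in a single library. S100a5 lies between S100a4 and S100a6 and stood at 2.13 FPKM in CD34-positive replicate 2, the library highest in both neighbours, and at 0.46 FPKM or less elsewhere. The other stretch of the family begins 56 protein-coding genes further on, where S100a11 and S100a10 are direct neighbours. Of those 56 genes, mostly of the skin barrier, 44 were in the table and 43 were under 1 FPKM in every library. Among 9 other S100 genes on the fixed list, which includes S100b, S100g and S100z, 8 were under 1 FPKM in every library and none passed the minimum. Of these genes 4 were at 0 throughout, as were 6921 of all 20142 symbols listed once.

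**Figure D3:**
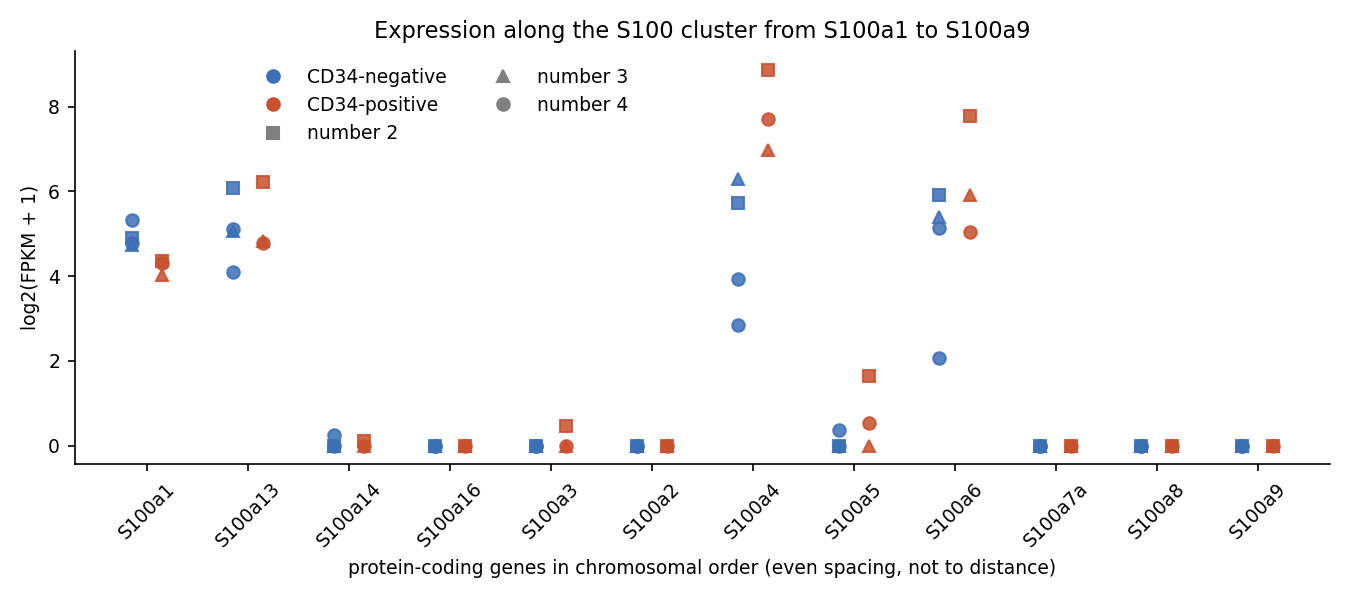
Level in log2(FPKM + 1) of the 12 S100 genes from S100a1 to S100a9 in chromosomal order with even spacing, for each library by CD34 state (colour) and description number (symbol). S100a1, S100a13, S100a4 and S100a6 are detected in every library, and of the other genes only S100a5 passes 1 FPKM, in CD34-positive replicate 2.

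The genes most like S100a4 were ranked by the root mean square difference between profiles, each centred on its own mean over the 7 libraries in log2(FPKM + 1), where 0 would be an identical shape. Among 8082 genes that reached 5 FPKM in a library, the nearest were Ly6a at 0.67, Gzma at 0.69, Cd34 at 0.81, 9030619P08Rik at 0.81 and Pglyrp1 at 0.84. Ly6a encodes the stem cell antigen Sca-1, Gzma a granule protease of cytotoxic lymphocytes and Pglyrp1 a protein that binds bacterial cell wall. Ly6a stood at 132, 208 and 143 FPKM in the positive and at 73.2, 11.9, 8.66 and 2.41 FPKM in the negative libraries. Gzma stood at 10.1, 86.8 and 93.3 FPKM in the positive and at 13.4, 10.4, 2.76 and 1.38 FPKM in the negative libraries, so in replicate 1 it did not share the direction of S100a4. Within the family S100a6 was the nearest to S100a4, at 1.11, and S100a1 the furthest, at 2.25. These are likenesses over 7 libraries that share the same sorts, and Cd34 is the gene the cells were sorted on.

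**Figure D4:**
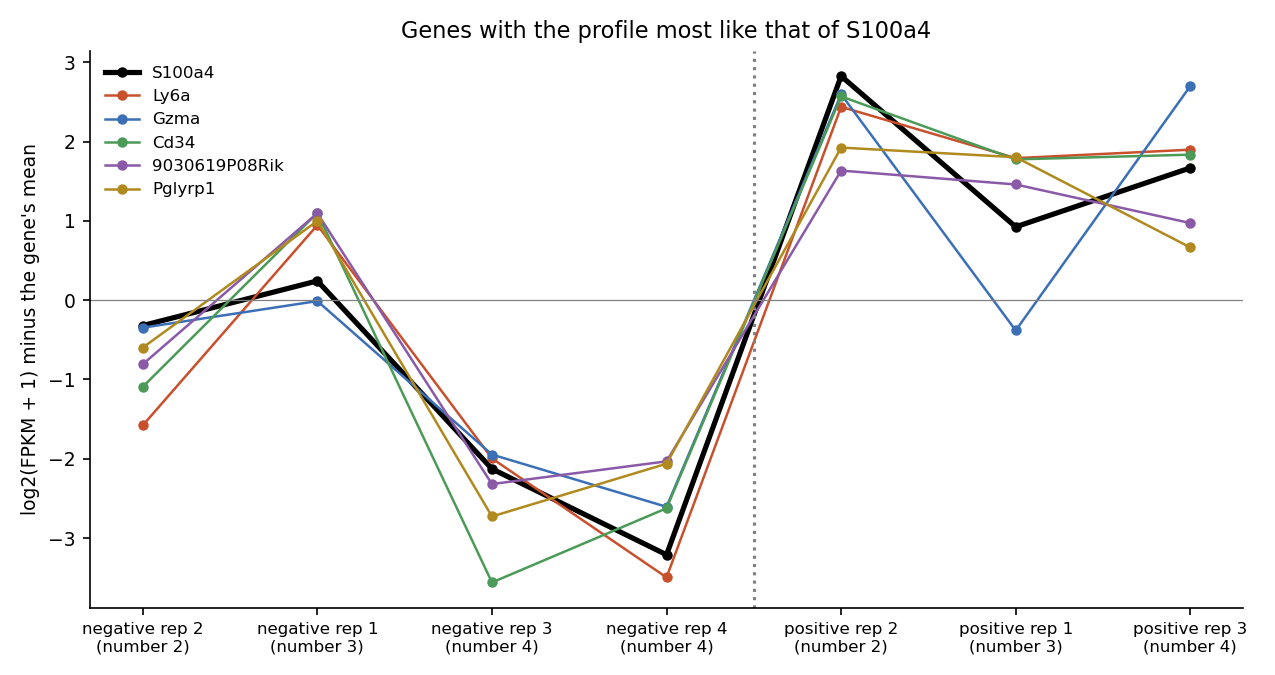
Profile over the 7 libraries of S100a4 and of the 5 genes most like it, each as log2(FPKM + 1) minus its own mean, with CD34-negative libraries left of the dotted line. All 6 are lowest in the negative libraries numbered 4, and Gzma departs from the others in CD34-positive replicate 1.

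The libraries numbered 4 were compared with those numbered 2 and 3, a contrast on which the genes were not chosen, with CD34 state as a covariate in limma over all 9259 genes. The fit counted each library as independent, although libraries of equal number were alike in their deviations. Number 4 is the only number on its side, so the SE and p-values of this contrast do not measure the spread between numbers. Of the 6 S100 genes 1 fell, S100a11. It stood at 79.3, 62.0 and 105 FPKM in the 3 libraries numbered 4 and between 219 and 398 FPKM in the other 4, with no overlap. The log2 difference was -1.84 (SE 0.22, adjusted p = 0.00132), and it had this direction in all of 14 other settings and passed in 13, with adjusted p from 0.00119 to 0.0887. The exception was quantile normalization, at -0.61. Over all genes 30.7% were lower and 5.93% higher in the libraries numbered 4, and the median difference of all genes was -0.29. That split depended on the scaling: 549 genes were higher and 2842 lower as deposited, 1334 and 1520 with median-ratio scaling, which brought the median to -0.02, and 1529 and 1478 with quantile normalization. S100a11 was at -1.52 with median-ratio scaling (adjusted p = 0.00442).

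The other members did not pass in limma as deposited. S100a6 was also lower in every library numbered 4 than in every other, as were 35.4% of tested genes, with a log2 difference of -1.95 (SE 0.76, adjusted p = 0.0816). It passed without CD34-negative replicate 3 (-2.69, adjusted p = 0.0293) and in none of the other 13 settings (adjusted p up to 0.216). S100a4 had -1.66 (SE 0.66, adjusted p = 0.0850) and passed only without CD34-positive replicate 1 (-2.14, adjusted p = 0.0125; up to 0.504 elsewhere). S100a13 had -0.88 (SE 0.44, adjusted p = 0.153), S100a10 -0.36 (SE 0.23, adjusted p = 0.249) and S100a1 0.19 (SE 0.21, adjusted p = 0.491). With quantile normalization S100a10 turned to 1.61 (adjusted p = 0.00243) and S100a1 stood at 0.73 (adjusted p = 0.0387), and in their other 13 settings neither passed (adjusted p up to 0.909 and 0.893).

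**Figure D5:**
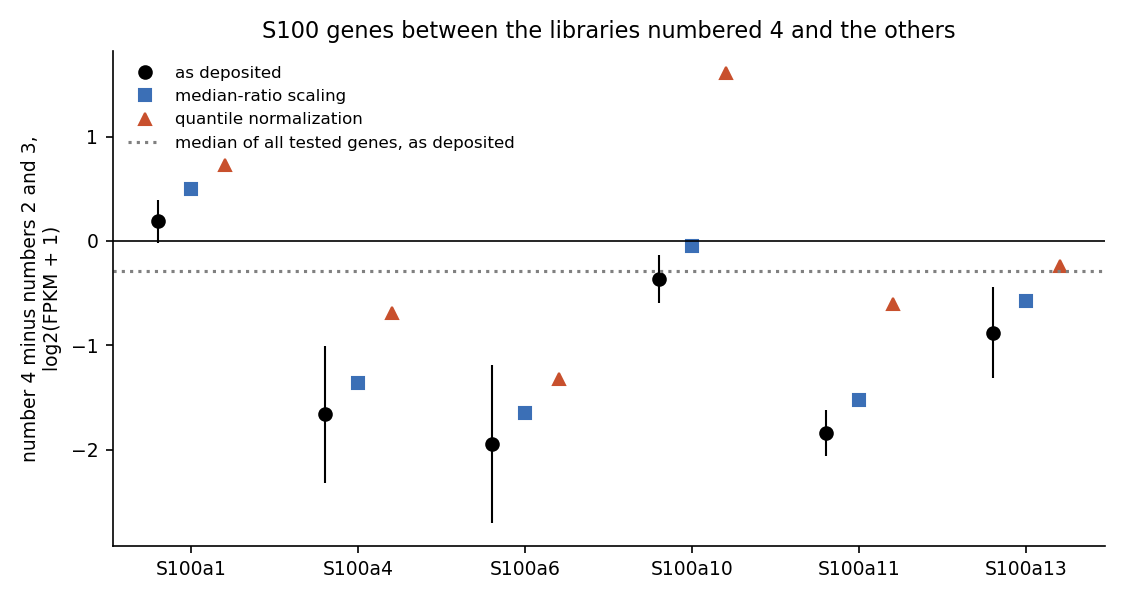
Difference of the 6 S100 genes between the libraries numbered 4 and those numbered 2 and 3 in log2(FPKM + 1), as deposited (black, with the moderated standard error from limma) and under 2 other scalings, with the median of all tested genes dotted. S100a11 at -1.84 is the member that passed as deposited, and S100a10 changes sign with quantile normalization.

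S100a11 has near-identical copies elsewhere in the genome. In GENCODE M21 its 511-base transcript matched 8 other genes, all processed pseudogenes, of which 2 (Gm12854 and Gm7665) were at least 95% identical over 297 bases. S100a10 matched 1 pseudogene at 88.0% identity over 216 bases. S100a4 shared 302 identical bases with Gm42674, and the other 5 members matched no other gene. None of the 8 pseudogenes is a row of the table, so how reads shared with them were assigned cannot be read from it, and S100a11 is uncertain in this respect. Gm42674 is not a row either, and it matched 302 of the 498 bases of the S100a4 transcript, so S100a4 is uncertain in the same way. All 8 S100 transcripts are short, at 486 to 731 bases. Among 246 tested genes with a transcript of up to 800 bases, the median difference of the libraries numbered 4 was -1.35 and 63.4% were lower, against -0.30 and 31.0% of all 8726 tested genes with a length. Without ribosomal protein genes these were -1.26 and 58.5% of 217 genes. The part of transcript length, of pseudogenes and of the ribosomal share in the S100a11 difference was not tested.

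The partners of the S100 proteins were present unevenly. Of 26 listed partners and receptors, all in the table, 17 were tested, 8 were under 1 FPKM in every library, and none passed in limma between the CD34 states in either direction. At an unadjusted p under 0.05 there were 2 higher and 0 lower partners of 17, where 3.38% and 2.27% of all tested genes were. With the block there were 3 and 1, near the 12.8% and 9.14% of all tested genes. The median log2 difference was 0.15 against 0.09 over all genes. Anxa2, which forms the well-known complex with S100a10, was nearly absent: it stood at 0.11, 0.21 and 0.04 FPKM in the positive and at 0.50, 3.16, 0.22 and 0.34 FPKM in the negative libraries, next to S100a10 at 209.7 FPKM or more. Of receptors and partners of S100a8 and S100a9, Cd36 and the oxidase subunit Cybb were at 0 in every library and Tlr4 did not exceed 0.11 FPKM. Bsg, which encodes a receptor of S100a9 also named CD147, was the most abundant of the list, at 242 ± 131 FPKM (SD, n = 3) in positive and 256 ± 177 FPKM (SD, n = 4) in negative libraries. Myh9, the myosin heavy chain bound by S100a4, averaged 221 ± 128 and 142 ± 57.6 FPKM, a log2 difference of 0.57 (SE 0.53). Cacybp, the partner of S100a6, averaged 55.3 ± 16.4 and 47.1 ± 16.9 FPKM, a difference of 0.26 (SE 0.39). Anxa2, Cd36, Cybb, Tlr4, Myh9 and Cacybp are named here after their values were seen. In the libraries numbered 4, 2 of the 17 tested partners were higher and 6 lower, where 5.93% and 30.7% of all tested genes were, so the count of lower partners was near that of all genes.

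Anxa1, the partner of S100a11, stood at 40.9, 35.0 and 37.7 FPKM in the positive libraries and at 28.2, 6.28, 27.1 and 4.92 FPKM in the negative ones, without overlap. Its log2 difference of 1.5 (SE 0.61) missed the threshold in limma, with an adjusted p = 0.83 and, with the block, an adjusted p = 0.193. Ncf1, an oxidase subunit, averaged 2.89 and 1.26 FPKM without overlap, Sugt1, a co-chaperone, 35.8 and 25.9 FPKM, and Anxa6 78.5 and 55.1 FPKM. Anxa1 and Ncf1 were the 2 of 17 tested partners higher without overlap, where 2.67% of all tested genes were. Of 12 annexin genes 8 were tested and none passed. Their median log2 difference was 0.60, against 0.09 over all genes. When the unadjusted p was held to 0.05, 2 of the 8 annexins were higher and 0 lower, where 3.38% and 2.27% of all tested genes were. With the block these were 3 and 1 annexins, where 12.8% and 9.14% of all tested genes were. Anxa5 averaged 66.3 ± 12.3 FPKM (SD, n = 3) and 30.3 ± 26.5 FPKM (SD, n = 4), and Anxa3, the most abundant annexin, 369.9 ± 37.4 and 207.9 ± 108.5 FPKM. Anxa9, the 1 annexin lower with the block, lay near the minimum at 0.63 and 1.55 FPKM. It reached 1 FPKM in CD34-negative libraries only. Anxa9 was therefore tested only through the group where it was higher, and nothing is read from its direction. The sort discarded cells that bound Annexin V, the protein that Anxa5 encodes, but that reagent is added from outside.

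Of 22 other EF-hand genes measured, 19 were tested and none passed between the CD34 states. None had an unadjusted p under 0.05 without the block, where 3.38% of all tested genes were higher and 2.27% lower. With the block 2 of the 19 were higher and 3 lower, near the 12.8% and 9.14% of all tested genes. The median log2 difference was 0.20, against 0.09 over all genes. Sri, which encodes sorcin, was the 1 of the 19 lower without overlap, where 3.01% of all tested genes were. In the positive libraries it stood at 21.0, 17.9 and 15.3 FPKM. In the negative ones it stood at 27.4, 27.0, 30.4 and 23.7 FPKM, a pattern much like that of S100a1. Its log2 difference was -0.57 (SE 0.27, adjusted p = 0.974 in limma, or 0.108 with the block). Lcp1, an actin-bundling protein, averaged 187.5 and 105 FPKM, the calmodulin gene Calm2 299 and 202 FPKM, and Hpcal1 4.10 and 2.16 FPKM. In the libraries numbered 4, 7 of the 19 were lower and 0 higher, where 30.7% and 5.93% of all tested genes were, so the count of lower genes was near that background. Their median difference was -0.73, against -0.29 over all genes.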

How the data were processed

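RNA-seq of EML cells, a mouse blood progenitor line, was available for 7 libraries, 4 CD34-negative and 3 CD34-positive, grouped by their titles. The authors deposited FPKM for each symbol. The tools TopHat2, TopHat and Cuffdiff and the builds mm9 and mm10 stand in the submitters' processing notes, with no version. The sources used here do not give the library each applies to, the annotation or the strand setting. The table held 20464 rows. The 322 rows of 105 repeated symbols were left out, none of them an S100 gene. Depth is unknown, so no counting interval is given. Low values of some pairs stood in a sharp ratio (24.5% of 793 low genes at 0.57 between the replicate 1 libraries), but FPKM steps depend on gene length and whole reads were not recovered.

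The 9259 genes that reached 1 FPKM in 3 or more libraries were fitted on log2(FPKM + 1) with limma 3.58.1 (R 4.3.3, trended prior variance). Tests were two-sided, p-values were adjusted by Benjamini-Hochberg across the 9259 genes, and 0.05 was the threshold. The scale understates the change of low genes. The code was tested on simulated data. The CD34 fit had no covariate, and the number fit had CD34 state. Deviations from the group means correlated at 0.70, 0.92, 0.82 and 0.85 between libraries of equal number, each over 0.1. The numbers in the labels were therefore treated as pairs and a block was run as an alternative. Between libraries of unequal number the correlations ran from -0.86 to 0.37. Those between the numbers 2 and 3, at 0.37 and 0.22, were also over 0.1. Other alternatives were the pseudocount (0.1), no filter or a filter of 5 FPKM, quantile and median-ratio scaling, leaving out each library, and the mean of CD34-negative replicates 3 and 4. Transcripts were matched with BLAST 2.17.0. The S100 genes and the lists were chosen with earlier results of these data known. Genes named were all 8 members, Cd34, up to 4 genes of each list with the smallest p and its most abundant gene, the 5 genes most like S100a4, and those said to be chosen after their values were seen.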

Additional observations from a re-analysis of the deposited data

Results flagged for a closer look

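Calm2, the most abundant of the other EF-hand genes, had 1 outlying CD34-negative library in log2(FPKM + 1). CD34-negative replicate 1 stood at 324 FPKM, and replicates 2, 3 and 4 at 173, 156 and 154 FPKM. The gap to the nearest library was 0.846 of the range of the group in log2(FPKM + 1), above Dixon's 95% limit for 4 samples. Of 23 named genes 1 was singled out in this way, and chance does so in about 1 in 20. None of the 6 S100 genes was.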

How the results depend on the processing

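The CD34 differences of S100a1, S100a4, S100a6 and S100a11 kept their direction in all of 17 other settings, and those of S100a10 and S100a13 in 9 and 13. Some settings could not change it. No filter and the filter of 5 FPKM left each value as it was. Leaving out a library could not reverse S100a4 or S100a1, whose groups did not overlap. The block by title number gave the same values as leaving out CD34-negative replicate 4. S100a4 was also chosen on this contrast, so these counts are no measure of support. S100a4 ran from 2.54 to 3.69 when 1 library was left out. It was 2.88 with the replicate block by description number, 4.13 without both libraries numbered 3 and 1.91 with the libraries numbered 2 and 3 only, the last 2 settings chosen after seeing the data. With either block no gene passed between the CD34 states (0 higher, 0 lower), and leaving out 1 library gave 0 to 7 higher and 0 to 3 lower. Between the libraries numbered 4 and the others, leaving out 1 library gave 123 to 932 genes higher and 1020 to 2820 lower. Quantile normalization gave 1529 and 1478, median-ratio scaling 1334 and 1520, and averaging the negative libraries numbered 4 into 1 sample gave 273 higher. S100a10 reversed to 1.61 with quantile normalization. Leaving out a library also leaves fewer libraries in the fit, and the cause of these changes was not tested. No paired analysis was possible for the number comparison because the number is its contrast. Depth is unknown, and levels near 1 FPKM are the least certain.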

Other observations

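The balance between the 2 most abundant S100 genes differed among the libraries. S100a10 to S100a11 stood at an FPKM ratio of 1.03 and 1.73 in CD34-negative replicates 1 and 2, and at 0.92 and 0.88 in CD34-positive replicates 1 and 2. In the libraries numbered 4 it was 4.0 and 3.38 in the negative ones and 2.57 in the positive one. The summed FPKM of the 6 detected S100 genes ran from 324 in CD34-negative replicate 4 to 1528 in CD34-positive replicate 2. The sum over all symbols listed once also differed between these libraries, at 272109 and 707487 FPKM, so part of that range is shared with the whole library. S100a11 led the family in CD34-positive replicate 1, S100a4 in CD34-positive replicate 2 and S100a10 in the other 5 libraries. Ivl, which encodes the skin protein involucrin, was the exception among the genes between S100a9 and S100a11, at 3.95 FPKM in CD34-positive replicate 3 and 0.82 FPKM or less elsewhere. Ahnak, a large scaffold bound by S100a10 and annexin A2, was higher in the libraries numbered 4, at 91.1, 22.5 and 41.7 FPKM against 5.70 to 20.5 FPKM (log2 difference 1.92, adjusted p = 0.0311 in limma). Of all tested genes 5.93% were higher there, and the part of transcript length in the Ahnak difference was not tested. Ivl and Ahnak are named after their values were seen.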
